A study of Mus musculus with 3 samples.

Results

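The 10 genes described here build the mammalian circadian clock or are its direct outputs. They are Arntl (also named Bmal1), Clock, Per1, Per2, Per3, Cry1, Nr1d1, Nr1d2, Dbp and Tef. They were taken by gene name from the probe annotation of the arrays, by a rule that used no measured value. The list itself was chosen with earlier results of these data known. Its genes are 10 of the 27724 gene names on the arrays, with 20 of the 41167 usable probes. The arrays came from C3H10T1/2, a mouse embryonic mesenchymal line of fibroblast character that is used in cell transformation assays. The 3 groups were untreated cells, cells exposed to hexavalent chromium, Cr(VI), at 0.01 uM, and cells exposed to Cr(VI) at 1 uM. Exposure began 24 h after 2000 cells per flask had been seeded, lasted 48 h and was followed by culture in changes of fresh medium up to day 15, when the cells were detached with trypsin and RNA was taken from a portion of them. Each group had 3 flasks and 1 array, and the labels do not say whether flasks were pooled. They also give neither the hour of harvest nor the time from the last medium change. Because no group had a replicate, no test between conditions was possible, and each difference below is one between single arrays. The question put to these genes was whether the arrays differed in the phase of the clock.

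The clock is a loop of transcription and repression. CLOCK and BMAL1, the product of Arntl, form a dimer that binds E-box elements and drives Per, Cry, Nr1d1, Nr1d2, Dbp and Tef, and the PER and CRY proteins then inhibit that dimer. NR1D1 and NR1D2 (REV-ERB alpha and beta) repress Arntl through ROR elements, so that in a running clock Arntl transcripts are high when those of Nr1d1 and Dbp are low. DBP and TEF act on D-box elements, which some Per genes carry. Cultured fibroblasts hold such clocks, which serum, glucocorticoids or cAMP can reset, and in an unsynchronised culture the cells' rhythms average out.

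Promoter sequences show which of these elements lie next to the start sites. The 250 bases before each start were taken from RefSeq (GRCm38.p6), which listed 14 starts for 9 of the genes. Per2 had no entry. Both strands were searched for the E-box (CACGTG), the E'-box (CACGTT), the D-box (TTATGTAA or TTACGTAA), the core of the ROR element (TAGGTCA) and the cAMP element (TGACGTCA). No base belonged to more than 1 element. The E-box was found for Per1, Cry1 and at both starts of Tef, and in 6.02% of the 32851 promoter windows of the genome. The E'-box was found for Nr1d1 and Cry1 (3.85% of all windows), and the D-box for Per3, where it occurred 2 times (0.931% of all windows). The ROR core (2.23% of all windows) and the cAMP element (1.55%) were in 0 of the 14 windows. A match of letters is not a binding site. A window without one says nothing of elements elsewhere, at its edge or spelled with other letters. The 4 windows below are those of the genes compared that hold a matched element, 1 for each gene. They read 5′ to 3′ on the strand of the gene, with the matched elements in capitals (E-box in Per1 and Tef, E'-box on the reverse strand in Nr1d1, D-boxes in Per3).
Per1 (chr11:69098699-69098948, plus strand): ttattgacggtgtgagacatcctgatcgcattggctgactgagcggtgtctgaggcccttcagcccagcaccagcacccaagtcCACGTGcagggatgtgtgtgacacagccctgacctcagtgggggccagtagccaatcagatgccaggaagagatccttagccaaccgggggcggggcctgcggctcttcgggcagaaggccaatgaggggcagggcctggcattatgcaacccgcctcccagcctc
Tef (chr15:81802423-81802672, plus strand): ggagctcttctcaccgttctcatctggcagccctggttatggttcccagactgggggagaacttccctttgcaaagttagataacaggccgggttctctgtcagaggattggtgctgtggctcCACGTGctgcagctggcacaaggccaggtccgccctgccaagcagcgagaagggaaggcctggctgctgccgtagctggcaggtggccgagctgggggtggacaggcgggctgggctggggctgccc
Nr1d1 (chr11:98775378-98775627, minus strand): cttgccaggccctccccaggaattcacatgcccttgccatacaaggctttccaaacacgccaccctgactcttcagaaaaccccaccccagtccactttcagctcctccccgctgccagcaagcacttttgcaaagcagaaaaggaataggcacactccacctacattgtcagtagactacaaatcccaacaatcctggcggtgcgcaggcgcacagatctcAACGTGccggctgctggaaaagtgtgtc
Per3 (chr4:151044666-151044915, minus strand): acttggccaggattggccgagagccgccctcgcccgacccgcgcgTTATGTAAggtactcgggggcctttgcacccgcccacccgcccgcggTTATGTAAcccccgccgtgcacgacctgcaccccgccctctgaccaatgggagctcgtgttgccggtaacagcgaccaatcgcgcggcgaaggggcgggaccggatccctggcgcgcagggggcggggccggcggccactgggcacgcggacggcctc
Counted from the start site, the Per1 E-box began at -166 and that of Tef at -127. The Nr1d1 element began at -28, and the Per3 D-boxes began at -205 and -158.

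Levels below are log2 processed signals minus the 75th percentile of the same array, so a level of 0 marks that percentile and levels of different genes do not compare. Of the 20 clock probes, 10 were well above background on all 3 arrays, 3 on some and 7 on none. Each probe had 1 spot and 0 were saturated. The standard error (SE) given with a difference is that of the scanner software, which presets a proportional error of 10% per spot. It is technical, and replicate spots of other probes had a median SD of 0.058 on the untreated, 0.057 on the 0.01 uM and 0.062 on the 1 uM array. Detection was 41.8% of all probes untreated, 36.4% at 0.01 uM and 41.5% at 1 uM. All 8 fibroblast and mesenchymal markers, among them Col1a1 and Pdgfrb, were well above background on every array. Several of them were lower at 1 uM than untreated, Fn1 by at least 2.20-fold, Pdgfrb by 1.80-fold, Sparc by 1.76-fold and Col3a1 by 1.64-fold, while Col1a1, Col1a2 and S100a4 were saturated on both arrays. Their part in the clock genes' differences was not tested. Of the other markers, 0 of 5 epithelial and 0 of 5 leukocyte markers were on any. Of 4 endothelial markers, Cdh5 was well above background on the 1 uM array alone, at -1.10 there against -4.01 untreated and -3.80 at 0.01 uM, and its part in the results was not tested.

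On the 1 uM array 4 of the 7 measured transcripts that CLOCK and BMAL1 drive were at least 1.5-fold lower than on the untreated array. Of all genes compared, 13.4% were lower by that much and 27.3% differed by it in either direction. The period gene Per2 was 2.53-fold lower and the output factor Dbp 2.00-fold lower, at the threshold used for counting. Tef and Nr1d1 were lower by 1.61-fold and 1.62-fold, but spike-in scaling put their log2 differences at -0.01 and -0.02. The same scaling put Per2 at -0.66 and Dbp at -0.32. Arntl was 1.30-fold and Clock 1.26-fold higher, which is under 1.5-fold, as were the differences of Per1, Per3 and Nr1d2. At 0.01 uM 0 of the clock genes was 1.5-fold away from the untreated array in either direction (2.03% of all genes).

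**Figure D1:**
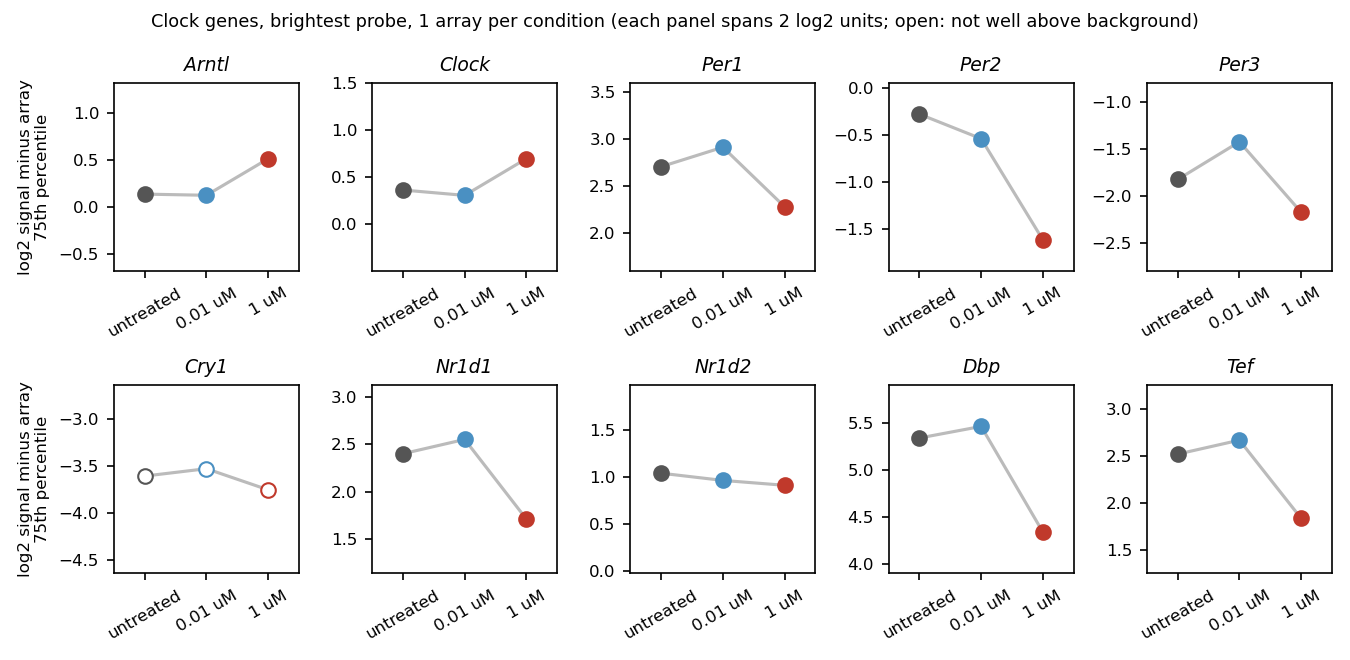
Level of each of the 10 clock genes on its brightest probe (y axis, log2 processed signal minus the array's 75th percentile, every panel spanning the same height) on the untreated, 0.01 uM and 1 uM array (x axis), 1 point per array. Arntl and Clock are highest on the 1 uM array, and the 7 other genes compared are lowest there. The open points of Cry1, also lowest there, mark signals not well above background.

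The positive arm of the loop was measured with 1 probe for Arntl and 4 for Clock. Arntl encodes BMAL1, the subunit whose transcript is itself rhythmic. It stood at 0.14 untreated, 0.13 at 0.01 uM and 0.52 at 1 uM, so that the 0.01 uM array lay beside the untreated one and the 1 uM array above both. The difference at 1 uM was 0.38 (SE 0.21), and 77.4% of all genes compared had a difference at or below it. Clock, the partner subunit, whose transcript is known to cycle little or not in many tissues, had the same order on its brightest probe, at 0.37, 0.31 and 0.70. Its difference at 1 uM was 0.33 (SE 0.21). A further Clock probe, detected on all arrays, differed by 0.66 (SE 0.26). The third was well above background at 1 uM alone, which makes it at least 2.29-fold higher there, and the fourth was on no array. The probes that gave a Clock signal therefore all had it highest at 1 uM, by unequal amounts. The Arntl probe lies at chr7:120456978-120457037 and the brightest Clock probe at chr5:76641377-76641436 (mm9 coordinates of the array files; exon or UTR was not determined).

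The repressors of the Per family were lowest on the 1 uM array. Per1, an E-box gene that serum and glucocorticoids also induce, stood at 2.71 untreated, 2.92 at 0.01 uM and 2.28 at 1 uM. Its difference at 1 uM was -0.43 (SE 0.20), or 1.34-fold. Per2, whose protein is a limiting partner of CRY in repression, stood at -0.28, -0.54 and -1.62. Its difference of -1.34 (SE 0.25) at 1 uM was the lowest of the 9 clock genes compared, and 3.82% of all genes had a difference at or below it. The signal of that probe, at chr1:93313046-93313105 (mm9), was 573 untreated, 354 at 0.01 uM and 245 at 1 uM. The other Per2 probe was well above background on no array. Averaging both probes, dim one included, gave -0.56, and normexp background correction gave -0.92. Per3, which is not required for the rhythm, stood at -1.82, -1.42 and -2.17, and its difference at 1 uM was -0.35 (SE 0.31), close to its technical error. Cry1, the repressor that joins PER in the inhibitory complex, had signals of 57.2, 44.6 and 55.8 on the brighter of its probes, in the same order. Neither Cry1 probe was well above background on any array, so Cry1 was not compared.

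The REV-ERB receptors close the second loop by repressing Arntl. Nr1d1 (REV-ERB alpha) stood at 2.40 untreated, 2.55 at 0.01 uM and 1.71 at 1 uM, with processed signals of 3684, 3027 and 2456. Its difference at 1 uM was -0.70 (SE 0.20). The bright Nr1d1 probe spans chr11:98630526-98631028 (mm9) in the files, 503 bases of genome for a probe of 60 bases. A second Nr1d1 probe cleared background in untreated cells alone, which makes Nr1d1 at least 1.31-fold lower on it at 1 uM. Nr1d2 (REV-ERB beta) stood at 1.04, 0.97 and 0.92. Its difference of -0.13 (SE 0.21) at 1 uM was within the technical error, and 42.4% of all genes had a difference at or below it. The related receptors thus had unequal differences, -0.70 and -0.13.

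Dbp and Tef encode factors of the PAR bZIP family that carry the rhythm to other genes through D-boxes. Dbp, which has one of the widest swings among clock transcripts in many tissues, stood at 5.34 untreated, 5.46 at 0.01 uM and 4.34 at 1 uM. The processed signals of its probe, at chr7:52965265-52965324 (mm9), were 28252, 22750 and 15238. The difference at 1 uM was -1.0 (SE 0.20), with 6.34% of all genes at or below it. Tef stood at 2.52, 2.67 and 1.84, a difference of -0.68 (SE 0.20) at 1 uM. A dimmer Tef probe, not well above background at 1 uM, was at least 1.66-fold lower there. Dbp, Tef and Nr1d1 shared their order over the arrays, highest at 0.01 uM and lowest at 1 uM. In each of them the step from untreated to 0.01 uM was smaller than the SE. The order was not particular to them, as Per1 and Per3 had it too, and so did genes such as Fos, Sgk1 and Klf9.

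Counted together, 2 of the 9 clock genes compared were at least 2-fold lower at 1 uM, beside 4.86% of the 12452 genes compared, and 0 were at least 2-fold higher (5.67% of all genes). Either way apart by 2-fold were 10.5% of all genes. At 1.5-fold the counts were 4 lower (13.4% of all genes) and 0 higher (13.9%), or 4 in either direction (27.3%). The 4 were Per2, Dbp, Nr1d1 and Tef. The median difference of the 9 clock genes was -0.43, and that of all genes compared was -0.04. All 7 targets of the dimer were below 0 (from -1.34 to -0.13), as were 53.1% of all genes, and both activators were above. The 2-fold count depended on the scaling. It was 1 (Per2) after quantile or loess scaling, and scaling on spike-in controls, which moved the median of all genes to 0.63, put Arntl and Clock at least 2-fold higher and 0 clock genes 2-fold lower. Per1, Per3 and Nr1d2 were above 0 with spike-in scaling (0.25, 0.33 and 0.55). Relative to the median of all genes, each of the 9 genes kept its side in all 11 alternatives at 1 uM. A scaling by a constant per array, spike-in scaling included, cannot change these relative values, so such alternatives add no evidence here. Per3 came nearest to the median, at -0.03 below it with normexp background correction.

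**Figure D2:**
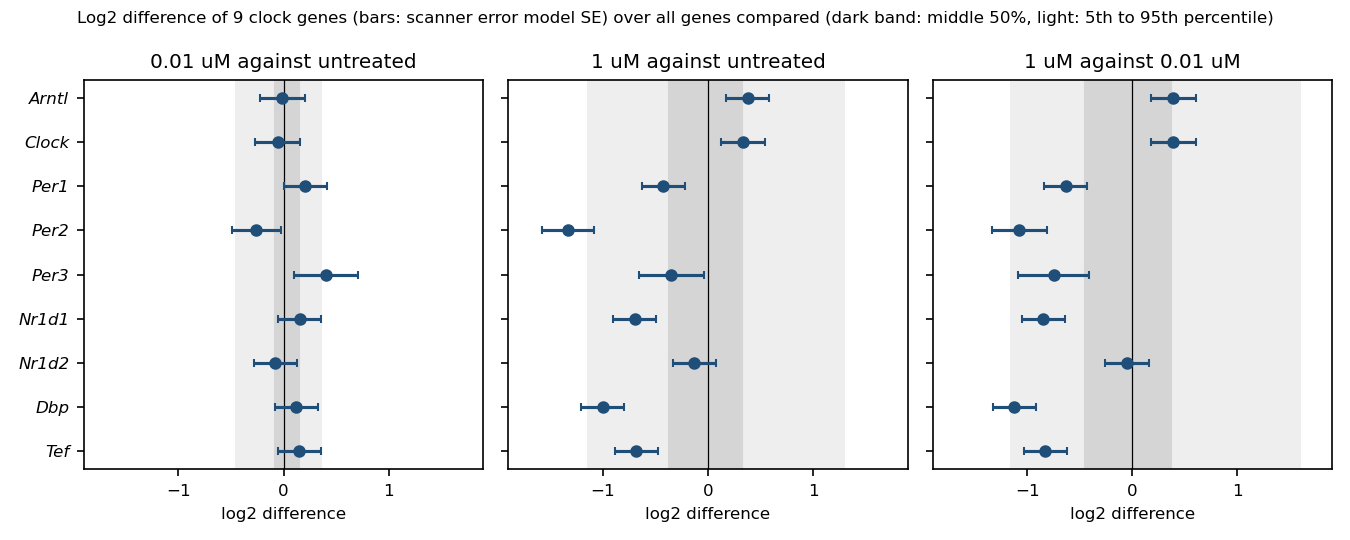
Log2 difference (x axis) of the 9 clock genes compared (y axis) for 0.01 uM against untreated, 1 uM against untreated and 1 uM against 0.01 uM, with the scanner's technical SE as bars. Dark and light bands hold the middle 50% and the 5th to 95th percentile of all genes. In both comparisons of the 1 uM array, Arntl and Clock lie right of 0 and Per1, Per2, Per3, Nr1d1, Dbp and Tef left of it.

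The contrast of a target gene with Arntl was also taken. It is the difference of 2 log2 differences and cancels any scaling by a constant per array, though not quantile or loess scaling. Nr1d1 minus Arntl was -1.07 (SE 0.29) for 1 uM against untreated, a 2.10-fold shift of their ratio, and 0.16 (SE 0.30) for 0.01 uM against untreated. For 1 uM against 0.01 uM it was -1.24 (SE 0.30). The value at 0.01 uM was thus within the technical error, while both values that involve the 1 uM array were over 3 times theirs. Over the 11 alternatives it ranged from -1.07 to -0.87 for 1 uM against untreated. Dbp minus Arntl was -1.38 (SE 0.29) and Per2 minus Arntl -1.71 (SE 0.32) for 1 uM against untreated. All 7 targets were lower relative to Arntl, by 0.50 (Nr1d2) to 1.71 (Per2) on the log2 scale. Relative to Clock the same 7 were lower as well, with a median of -1.02. Of all genes compared, 77.4% had a difference at or below that of Arntl and 75.5% at or below that of Clock. Most genes were thus also lower relative to either activator. A phase was not measured, since 3 single arrays taken once hold no time course. A difference in phase, in the share of cells in step and in the strength of the loop cannot be told apart here.

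**Figure D3:**
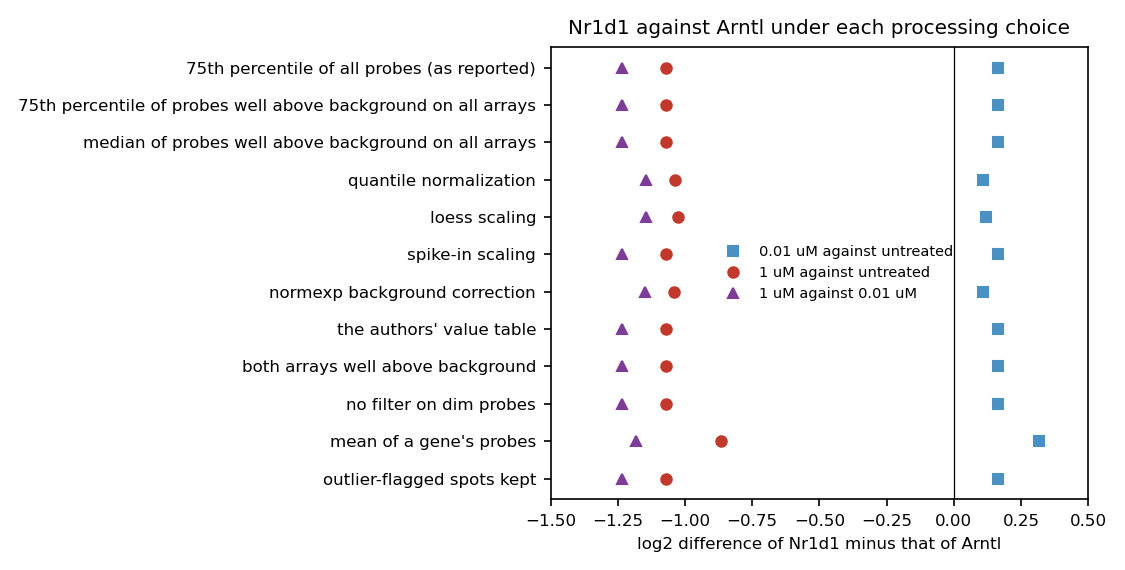
Log2 difference of Nr1d1 minus that of Arntl (x axis) under each of the 12 processing choices (y axis), for the 3 comparisons of arrays. The values that involve the 1 uM array lie between -1.24 and -0.87 and those of 0.01 uM against untreated between 0.11 and 0.32.

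At 0.01 uM, the clock genes lay near the untreated array. Of the 9 compared, 0 were at least 2-fold apart in either direction (0.436% of 11916 genes, 0.269% higher and 0.168% lower). At 1.5-fold the count was 0 as well (2.03% of all genes, 0.898% higher and 1.13% lower). The differences ran from -0.26 (Per2, SE 0.23) to 0.40 (Per3, SE 0.30), with a median of 0.12, against 0.05 over all genes. Of the 7 targets 5 were above 0, and Arntl and Clock were at -0.01 and -0.06. Quantile and loess scaling turned the median of the clock genes to -0.01 and -0.02, so its sign is not settled. Both doses were set against the same untreated array, and their values are therefore not independent.

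Between the doses, 2 of the 9 clock genes lay at or past 2-fold on the lower side at 1 uM (6.45% of 12060 genes) and 0 on the higher side (5.2%), with 11.7% of all genes past it in either direction. These were again Dbp (-1.12, SE 0.20) and Per2 (-1.08, SE 0.26). At 1.5-fold, 6 were lower (17.3% of all genes) and 0 higher (12.4%), against 29.7% of all genes in either direction, which added Per1, Per3, Nr1d1 and Tef. Arntl and Clock were both 0.39 higher. This comparison uses the 1 uM array again. The 6 genes were lower on it than on either of the other arrays. For Nr1d2 the difference was -0.05. With the 75th percentile of detected probes in place of that of all probes, Per2 differed by -0.95, Dbp lay just inside the threshold, and 0 genes were counted at 2-fold.

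Other parts of the loop were read from a list of 12 genes, of which 7 could be compared at 1 uM. At 1.5-fold, 5 were lower (13.4% of all genes) and 1 was higher (13.9%). The median was -0.69. Bhlhe41 and Bhlhe40 encode DEC repressors that compete for E-boxes. Bhlhe41 was at -0.73 untreated, -1.24 at 0.01 uM and -2.75 at 1 uM, where it was not well above background, and so was at least 4.06-fold lower. Bhlhe40 was 1.92-fold lower at 1 uM. Ciart, a repressor of the dimer, was at -0.08, -0.06 and -0.99, or 1.87-fold lower. Cry2, a close relative of Cry1, was 1.59-fold lower and Rora, an activator of Arntl, 1.61-fold lower (-0.76 on its other detected probe). Nfil3, which opposes DBP at D-boxes, differed by -0.15. Timeless, which in mammals serves chiefly in DNA replication, was 1.73-fold higher, with another probe at 1.16 on the log2 scale. Npas2, Arntl2, Rorb and Hlf were among those well above background on no array.

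Kinases, phosphatases and ubiquitin ligases set the speed of the clock by modifying its proteins. Of 13 compared genes for them, 0 were 2-fold apart at 1 uM, against 10.5% of all genes in either direction. Prkaa2, a catalytic subunit of AMP-activated kinase, was the 1 gene past 1.5-fold (1.85-fold higher), against 27.3% of all genes. The casein kinases Csnk1d and Csnk1e, which phosphorylate PER, differed by 0.03 and 0.16, and the median was 0.02. A dim Csnk1e probe, well above background on 1 array, differed by 1.84. Among 13 cofactors, Sfpq, a PER complex protein with a wide role in splicing, was 2.35-fold higher and the demethylase gene Kdm5a 1.67-fold lower. They were the only cofactors past 1.5-fold, 1 higher (13.9% of all genes) and 1 lower (13.4%), and the median was -0.20. For Thrap3 the probes disagreed (-0.07 and 1.10).

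Rhythmic output genes outside the loop did not share 1 direction. Of 9 compared at 1 uM, Pdk4, a brake on pyruvate oxidation, was 3.23-fold lower, and Usp2, a deubiquitinase that the clock drives in many tissues, was 1.83-fold higher. On the brightest probes no others passed 1.5-fold, which left 1 lower (13.4% of all genes) and 1 higher (13.9%). In either direction 27.3% of all genes passed it. Noct, a rhythmic phosphatase also induced by serum, differed by 0.58 and Nampt, the enzyme of NAD salvage, by -0.43. A further Nampt probe, detected on all arrays, differed by -0.69, which is past 1.5-fold. The median of the list was -0.13. Usp2 thus differed in the opposite direction from Dbp and Nr1d1.

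Genes that answer the known resetting signals are given here beside the Per genes. Among the glucocorticoid-responsive genes 8 were compared, of which 4 lay 2-fold or more below the untreated array (4.86% of all genes) and 1 above it (5.67%). Mt2 was saturated on both arrays, and the median difference of the other 7 was -1.0. Klf9 was 3.73-fold lower, Sgk1 2.45-fold and Tsc22d3 2.00-fold, whereas Fkbp5, a chaperone of the receptor, was 3.46-fold higher. Of 10 serum- and cAMP-induced early genes, 5 lay 2-fold or more below the untreated array (4.86% of all genes) and 0 above it (5.67%). At 1.5-fold these counts were 9 (13.4% of all genes) and 1 (13.9%), and the median difference was -0.96. Fos had levels of 3.61 untreated, 4.15 at 0.01 uM and -0.19 at 1 uM. Egr1 was 1.75-fold lower, and Crem, a cAMP-induced regulator, 1.95-fold higher. Ier2 was at least 2.05-fold lower on its saturated bright probe, with a dim probe at 1.34 on the log2 scale. At 0.01 uM the medians of the glucocorticoid and early gene lists were 0.17 and 0.33 over the 7 and 8 genes not saturated on both arrays. The part of such signals in the clock genes' differences was not tested.

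**Figure D4:**
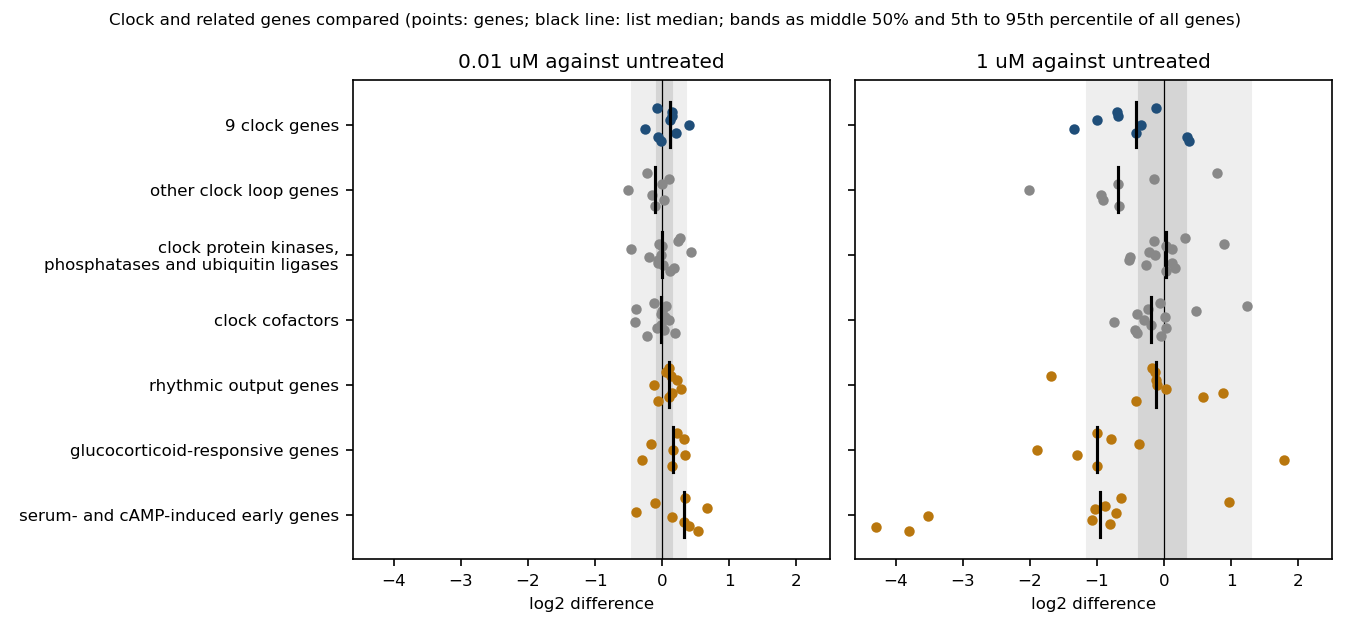
Log2 differences (x axis) of the 9 clock genes and of the genes of 6 further lists (y axis, 1 point per gene, black line for the list median) at 0.01 uM and 1 uM against untreated, over bands with the middle 50% of single genes and the 5th to 95th percentile of all genes. Genes saturated on both arrays are left out, and at 1 uM the medians are -0.69 for the other clock loop genes, 0.02 for kinases and ligases, -0.20 for cofactors, -0.13 for output genes, -1.0 for glucocorticoid-responsive genes and -0.96 for early genes.

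Many genes outside the clock had the same pair of differences. Likeness was measured as the distance between genes in the log2 differences at both doses, among 9518 genes well above background on all arrays. Within a distance of 0.1 lay 235 genes for Nr1d1, 88 for Dbp and 380 for Arntl. Nearest to Dbp were Tsc22d3 (distance 0.018) and Id1 (0.024), nearest to Nr1d1 were Elmod3 and Lrmda (0.013 and 0.015), and nearest to Arntl were Ddx17 and Ywhag (0.0057 and 0.0064). With 3 arrays this likeness rests on 2 numbers per gene.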

How the data were processed

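RNA of 3 samples of C3H10T1/2 cells was measured on 3 arrays of 1 slide in 1 scan, so neither slide nor scan differs between the groups. The deposited intensity values are Cy3 signals that Agilent Feature Extraction 10.5.1.1 produced, per the file headers, with detrending and surrogate values for dim spots. The authors' deposited value table holds log2 values. Apart from a constant for each array (9.45, 9.01 and 9.56) these match log2 processed signal to within 0.01 for 99.8% or more of probes; their column medians are -4.23 untreated, -3.96 at 0.01 uM and -4.03 at 1 uM.

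Control and outlier-flagged spots were left out, spots of a probe were averaged, and the 75th percentile of all probes was subtracted. Probes were renamed through RefSeq (GRCm38.p6) by accession (25094 probes), symbol (6332) or synonym (1640), with 8101 left as in the files, and the brightest probe stood for a gene. Genes entered a comparison if either array had them well above background. With 1 array dim, or the brighter one saturated, a fold is a lower bound, counted against the higher of the dim signal and the lowest detected one. Saturation on both arrays gave no fold, and such genes stayed out of list medians. No p-value was computed, as the number of arrays limits the precision. The 10 members, the further lists, the thresholds of 2-fold and 1.5-fold and the alternatives were chosen with earlier results of these data known. The contrast of Nr1d1 with Arntl was planned, and those of other pairs were added after their values were seen. Named genes were all members, members of the lists and the 5 genes nearest in pattern, of which some are given and some list genes are not reported here. Alternatives were other scalings (5 spike-in probes, loess with span 0.4), normexp with limma 3.58.1 in R 4.3.3 (offset 50), other filters, and the authors' table. Counts by threshold were tested on simulated data. Other steps ran in Python 3.11.15 with statsmodels 0.14.6 and pandas 2.3.3.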

Additional observations from a re-analysis of the deposited data

How the results depend on the processing

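The contrast of Nr1d1 with Arntl kept its sign in all 11 alternatives in each of the 3 comparisons, and moved by less than its technical error. Most alternatives could not move it, since a constant per array cancels and a filter leaves both genes' values as they are. For 1 uM against untreated it left -1.07 only with quantile normalization (-1.04), loess (-1.03), normexp (-1.04) and the mean of probes (-0.87). The 2-fold count of clock genes at 0.01 uM against untreated was 0 in all 11 alternatives and at 1.5-fold. For 1 uM against untreated the count of 2 became 1 with the 75th percentile of detected probes, the median of detected probes, quantile normalization and loess scaling (Per2 in each), and 1 with normexp and with the mean of a gene's probes (Dbp in each). It was 4 at 1.5-fold. With spike-in scaling it stayed 2 by number, but these were Arntl and Clock, both higher. For 1 uM against 0.01 uM the count of 2 became 0 with spike-in scaling or the detected probes' 75th percentile, 1 with the median of detected probes, quantile normalization, loess, normexp and the mean of probes, and 6 at 1.5-fold. Spike-in scaling moved the median of the clock genes to 0.25 for 1 uM against untreated, 0.43 for 0.01 uM against untreated and -0.37 for 1 uM against 0.01 uM. For the medians the cause is the scaling constant, which moved all genes alike. Any scaling by a constant per array also moved the differences behind the counts alike. The detected probes' 75th percentile put Dbp at -0.94 for 1 uM against untreated, inside the threshold. For the counts under the other settings the cause was not tested. No paired analysis was possible because each condition has 1 array, and no array could be left out. Cry1 and 7 of the 20 probes were limited by signal over background.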
